A study of Mus musculus with 2 samples.

Results

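Bidirectional promoter peaks were defined as ATAC-seq peaks at the start of 2 protein-coding genes that are read away from each other. A divergent pair was a minus-strand gene whose start lay 1 to 1000 bp to the left of the start of a plus-strand gene, by the gene records of GENCODE release M21 on mm10. A peak was a member when its summit, the point of highest signal, lay between both starts or within 200 bp of one of them. By this rule 772 of the 117165 control peaks and 761 of the 124935 Ngn3-OE peaks were members, which is 0.659% and 0.609% of the lists. The other 19681 control and 20337 Ngn3-OE peaks with a summit within 1 kb of a protein-coding start served for comparison and are called other promoter peaks.

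ATAC-seq marks open chromatin through Tn5, a transposase that inserts sequencing adapters where DNA is not wrapped in nucleosomes. Late retinal progenitor cells (RPCs), which still divide in the retina of newborn mice, were electroporated in vivo at P1 with a control plasmid or with a plasmid for overexpression of Ngn3, a proneural transcription factor gene. GFP-labeled cells were sorted at day 2 after electroporation (DAE 2), so both groups, control and Ngn3-OE, carried the electroporation and the GFP label and differed in the plasmid. Each group had 1 library of an equal number of sorted cells, and strain, sex, the number of pups per library and the promoter of the plasmids are not given in the sources used here. Without replicates no test of the condition was possible, and all intervals below are 95% intervals. Those of shares and medians treat the regions, pairs or genes of 1 list as independent draws. Those of tag ratios cover counting error alone, and none holds the spread between libraries. Members are regions of 1 library and not replicates of a condition.

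Divergent gene pairs are common in mammalian genomes, and the short stretch between the starts acts as the promoter of both genes. Such promoters are known for CpG islands, for a lack of TATA boxes and for housekeeping genes, such as those of DNA repair, mitochondria and the cell cycle. One nucleosome-free region can serve 2 transcription complexes that point outward, and nucleosomes are placed on either side of it.

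The annotation gave 754 divergent pairs with 1487 distinct genes, 6.78% of 21938 protein-coding genes. The starts of a pair were a median of 129.5 bp apart, with quartiles of 67 and 240 bp.

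The stretches between the starts of 7 pairs are given as examples and do not stand for all members. Their GC content ran from 41.6% to 64.6%. Windows of 100 bp on each side of control member summits had a median of 64.7%. Mrps12/Sars2, Hist1h2ac/Hist1h2bc, Psmb1/Tbp and Rpgrip1l/Fto are well-known pairs, and Brix1/Rad1, Cebpz/Ndufaf7 and Fkbp15/Slc31a1 are among the 8 pairs with the highest rank over both libraries. In mm10 the stretches are Mrps12/Sars2 at chr7:28741821-28741991, Hist1h2ac/Hist1h2bc at chr13:23683949-23684198, Fkbp15/Slc31a1 at chr4:62360549-62360726, Brix1/Rad1 at chr15:10485948-10486017, Cebpz/Ndufaf7 at chr17:78937067-78937135, Psmb1/Tbp at chr17:15499752-15499887 and Rpgrip1l/Fto at chr8:91313263-91313524. Each runs from the base after the start of the minus-strand gene record to the base before that of the plus-strand record, so outside both genes. All are given 5′ to 3′ on the plus strand, so the first gene of each name reads away to the left and the second to the right. Capitals mark matches on either strand to the core letters of NRF1 (CGCATGCG), ETS (CCGGAAG), YY1 (AAGATGGC), NF-Y (CCAAT), CRE (TGACGTCA), ZNF143 (ACTACAA) and E2F (TTCCCGC).
Mrps12/Sars2: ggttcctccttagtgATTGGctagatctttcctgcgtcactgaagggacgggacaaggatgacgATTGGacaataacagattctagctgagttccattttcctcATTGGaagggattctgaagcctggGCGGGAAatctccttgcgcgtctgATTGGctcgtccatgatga
Hist1h2ac/Hist1h2bc: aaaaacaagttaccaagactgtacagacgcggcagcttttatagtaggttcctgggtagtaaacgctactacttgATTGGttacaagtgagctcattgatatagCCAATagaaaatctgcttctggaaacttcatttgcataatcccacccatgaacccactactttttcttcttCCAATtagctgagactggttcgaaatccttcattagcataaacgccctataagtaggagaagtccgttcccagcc
Fkbp15/Slc31a1: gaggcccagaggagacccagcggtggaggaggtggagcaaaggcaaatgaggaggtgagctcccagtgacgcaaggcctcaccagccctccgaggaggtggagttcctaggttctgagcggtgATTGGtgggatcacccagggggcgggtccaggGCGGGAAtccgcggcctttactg
Brix1/Rad1: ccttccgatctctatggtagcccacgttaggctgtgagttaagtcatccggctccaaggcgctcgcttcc
Cebpz/Ndufaf7: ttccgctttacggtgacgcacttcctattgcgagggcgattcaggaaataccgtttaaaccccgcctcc
Psmb1/Tbp: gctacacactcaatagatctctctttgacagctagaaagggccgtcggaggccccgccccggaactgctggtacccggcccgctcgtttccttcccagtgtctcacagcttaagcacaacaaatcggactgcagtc
Rpgrip1l/Fto: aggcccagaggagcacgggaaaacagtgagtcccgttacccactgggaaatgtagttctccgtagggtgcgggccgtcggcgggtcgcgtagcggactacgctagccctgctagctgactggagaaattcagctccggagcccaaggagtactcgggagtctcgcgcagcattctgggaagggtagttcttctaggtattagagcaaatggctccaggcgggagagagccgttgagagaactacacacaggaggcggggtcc

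NF-Y is a CCAAT-binding factor of many cell cycle and histone promoters, and the 171 bp between Mrps12 and Sars2 held 4 of its CCAAT cores and 1 E2F core. The 250 bp between the histone genes Hist1h2ac and Hist1h2bc held 3 CCAAT cores and had a GC content of 41.6%. The 178 bp between Fkbp15 and Slc31a1 held 1 CCAAT and 1 E2F core. None of the 7 core motifs matched between Brix1 and Rad1 (70 bp), Cebpz and Ndufaf7 (69 bp), Psmb1 and Tbp (136 bp) or Rpgrip1l and Fto (262 bp), which says that these exact letters are not in these stretches. Over the 531 pairs with 40 to 300 bp between the starts, the SP/KLF core GGGCGG was in 53.1% of the stretches (48.9 to 57.3). The CCAAT core was in 37.9% (33.8 to 42.1) and the ETS core in 15.4% (12.6 to 18.8). No like stretches at other starts were counted, so these shares are a description of the pairs alone. Within 100 bp of the summit, a window of another length, 17.7% of all control peaks held the SP/KLF core. There the CCAAT core was in 25.5% and the ETS core in 3.19%.

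Most divergent pairs were open in both libraries. A summit lay in the zone of 686 of 754 pairs in control and likewise of 686 in Ngn3-OE, which is 91.0% (88.7 to 92.8) in each. In all, 683 pairs had a peak in both libraries, 3 in control only, 3 in Ngn3-OE only and 65 in neither. Zones of neighbouring pairs can overlap, and each peak was then assigned to the single pair with the nearest midpoint. By assigned peaks 666 pairs had a member peak in both libraries. A pair without a summit in its zone can still be reached by a peak. At Tgfbrap1/AI597479, with a member peak in Ngn3-OE alone, that peak had 84 tags and overlapped a control peak. Counted by single gene, 84.9% of the 1487 paired starts (83.0 to 86.6) had a control summit within 200 bp. Of the 20451 other protein-coding starts, 48.0% (47.3 to 48.6) had one. The Ngn3-OE shares were 84.0% and 48.1%. A paired start can be counted through a peak that lies at its partner, and genes that are silent in these cells are part of both sets.

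Bidirectional promoter peaks ranked high in both lists. The strength of a peak was taken as the deposited fold enrichment at the summit (column 7) and turned into a rank percentile within its own list, with 100 as the strongest and 0 as the weakest. The median member stood at percentile 93.4 in control (92.5 to 94.2) and 93.1 in Ngn3-OE (92.2 to 93.9), while other promoter peaks stood at 71.9 and 71.3. In the highest 10 percentiles of the list lay 61.9% of control members (58.4 to 65.3) and 28.7% of other promoter peaks (28.1 to 29.3). At the summit the median member had 59 tags, the pileup of aligned fragments, in either library. The range of the members was 4 to 266 tags in control, and it was 4 to 278 in Ngn3-OE.

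Much of that difference went with distance to a start. The median other promoter peak of control had its summit 193 bp from the nearest start, and the median member 35 bp. The rule places members by that distance, so this contrast is in part set by the rule. For the other control peaks within 200 bp of a start the median was 54 bp. Against the 9967 control peaks outside pairs with a summit within 200 bp of a start, the median percentile differed by 4.76 points (3.70 to 5.61) in place of 21.6 points (19.9 to 22.5). The same values in Ngn3-OE were 4.68 points (3.72 to 5.58) and 21.8 points (20.8 to 22.8). Members were also richer in CpG: 86.5% of control members and 77.6% of the other peaks within 200 bp had a CpG-rich window, meaning a GC content of at least 50% and an observed to expected CpG ratio of at least 0.6 within 100 bp of the summit. Among CpG-rich peaks within 200 bp of a start, with 1 peak per pair or start, a comparison added after seeing the data, the difference was 4.05 points in control (3.17 to 4.77) and 3.63 in Ngn3-OE (2.83 to 4.43).

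**Figure D1:**
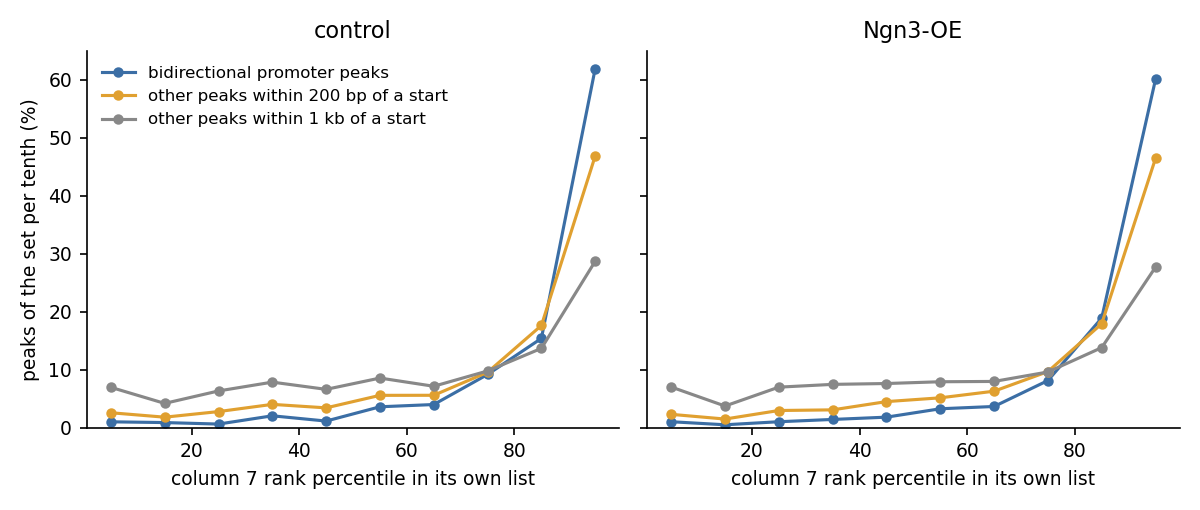
Share of each set of peaks (y axis, %) that fell in each band of 10 percentiles of the column 7 rank (x axis, points at the middle of the band), for control on the left and Ngn3-OE on the right. In the highest band lie 61.9% of bidirectional promoter peaks, 46.9% of other peaks within 200 bp of a start and 28.7% of other peaks within 1 kb in control.

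The highest mean rank over both libraries was that of Brix1/Rad1. Brix1 acts in ribosome assembly and Rad1 in the checkpoint clamp of the DNA damage response, and their peak had 140 tags in control and 144 in Ngn3-OE. The peak of Cebpz/Ndufaf7, of which Ndufaf7 assists the assembly of respiratory complex I, had 125 and 144 tags. Cep128, a centriole protein gene, lies back to back with Tshr, the thyrotropin receptor gene, and that peak had 185 and 194 tags. The remaining pairs of the top 8 were Calr3/1700030K09Rik, Fam3a/Ikbkg, Cdc26/Prpf4, Fkbp15/Slc31a1 and Pld3/2310022A10Rik, with 103 to 173 tags in control and 109 to 195 in Ngn3-OE. All 8 stood above percentile 99 in both lists, and each peak had 1 summit.

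Members were wider than other promoter peaks. The median width was 293.5 bp (281 to 307) among control members and 303 bp (288 to 313) among Ngn3-OE members, against 194 and 195 bp in other promoter peaks and 252 and 257 bp in those within 200 bp of a start. The control members exceeded the peaks within 200 bp by 41.5 bp (28.6 to 55.3), and the Ngn3-OE members by 46 bp (30.5 to 56.2). Since only short fragments were kept before peak calling, these widths do not show nucleosomes. At like strength, in the highest 10 percentiles of the rank, members had a median of 337.5 bp in control (327 to 347) and for the peaks within 200 bp the interval of the median was 298 to 305 bp. In the 10 percentiles below that, the medians were 280 bp (245 to 307) and 264 bp (258 to 270), and from percentile 70 to 80 they were 205 bp (183 to 232) and 227 bp (220 to 238). In Ngn3-OE the highest 10 percentiles had medians of 344 bp (332 to 352) and 308.5 bp (305 to 313), and in every lower band of 10 percentiles of either library the intervals of both sets overlapped.

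More members than other promoter peaks were split into several summits. More than 1 summit was listed for 29.8% of control members (26.7 to 33.1) and 30.6% of Ngn3-OE members (27.4 to 34.0), against 19.3% and 19.6% of other promoter peaks. Against the peaks within 200 bp of a start the difference fell to 4.63 points in control (1.39 to 8.05) and 4.08 points in Ngn3-OE (0.790 to 7.55). Among CpG-rich peaks within 200 bp with 1 peak per pair or start it was 3.24 points (-0.520 to 7.21) and 1.58 points (-2.14 to 5.52), so that both intervals included 0. The widest member in both libraries was that of L3hypdh/Jkamp on chromosome 12, with 865 bp and 5 summits in control and 936 bp and 4 summits in Ngn3-OE, although the starts are 150 bp apart. Next in width came Lrrc42/Hspb11 with 791 bp and Rnf5/Agpat1 with 786 bp in control, and Nlgn2/Tmem256 with 874 bp and Tgfbrap1/AI597479 with 835 bp in Ngn3-OE. Several other members had 4 summits, and of these the highest −log10 q was that of Ccnb1ip1/Parp2 and 1110059E24Rik/Abhd17b in control and of Dzip3/Cip2a and Srgap2/Fam72a in Ngn3-OE.

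Peak width did not rise steadily with the distance between the starts. Grouped by distance with the upper limit included, peaks of pairs up to 100 bp apart had a median width of 280.5 bp among control members and 287 bp (267 to 310) among Ngn3-OE members. At 100 to 200 bp the medians were 329 and 331 bp (314 to 344), and at 500 to 1000 bp they were 255.5 and 254 bp (213 to 292), with the intervals of Ngn3-OE. The last group differed from the first by -25 bp (-76.9 to 23.1) in control, and by -33 bp in Ngn3-OE (-80.0 to 9.94), and both intervals included 0. With transcript starts in place of gene starts, the differences were -32 bp (-56.1 to -3.64) in control and -43 bp (-72.0 to -15.5) in Ngn3-OE, and neither interval included 0. One peak covered both starts for 93.7% of control members at up to 100 bp (90.3 to 96.0), 79.6% at 100 to 200 bp, 49.1% at 200 to 300 bp, 20.4% at 300 to 500 bp and 3.13% at 500 to 1000 bp. In the last group the upper quartile of width was 345 bp in control, shorter than the distance itself. The fall in this share is therefore largely set by peak width and the grouping. Over all distances 64.0% of control members and 64.9% of Ngn3-OE members covered both starts.

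As the starts moved apart, pairs gained peaks instead. More than 1 member peak was found for 1.603% of control pairs at up to 100 bp, 4.85% at 100 to 200 bp, 20% at 200 to 300 bp, 43.9% at 300 to 500 bp and 42.9% at 500 to 1000 bp. The zone itself grows with the distance, so a longer zone can also hold more peaks. Of the 91 pairs over 400 bp apart, whose 200 bp windows do not overlap, 38 had a control summit at both starts, 40 at 1 start, 1 in the middle alone and 12 at none of these. In Ngn3-OE the counts were 35, 44, 1 and 11. Where both starts had their own peak, the ranks of the 2 peaks were a median of 22.1 percentiles apart in control and 19.3 in Ngn3-OE. Btf3l4/Txndc12, the pair with the longest distance at 987 bp, had 3 member peaks in each library, and the strongest lay at Btf3l4 with 110 tags in control and 93 in Ngn3-OE.

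**Figure D2:**
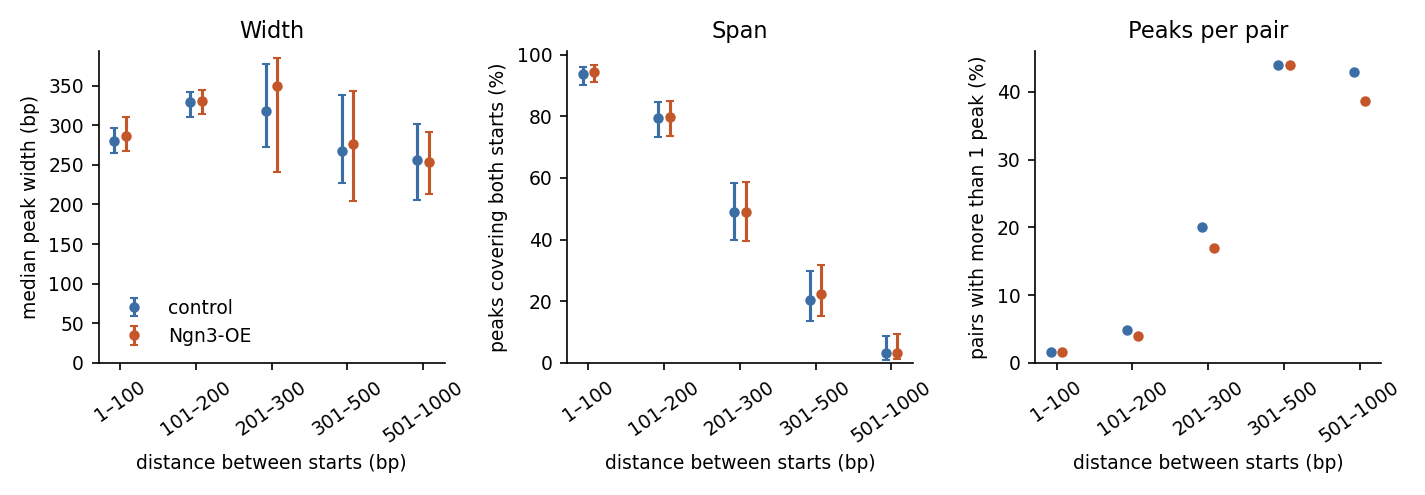
Bidirectional promoter peaks by the distance between the starts of the pair (x axis, bp), with control and Ngn3-OE in separate colours. The panels give the median peak width (bp), the share of peaks that cover both starts (%) and the share of pairs with more than 1 member peak (%). Bars in the first 2 panels are 95% intervals. In control the share that covers both starts falls from 93.7% to 3.13%, a fall largely set by peak width and the grouping.

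The rule keeps summits near the starts, so their place is a description. In control 59.97% of summits (56.5 to 63.4) lay strictly between the starts, and in Ngn3-OE 60.4% (56.9 to 63.9). The median summit lay 11.5 bp upstream of its nearest start in control (7 to 15), a distance that the short stretch between the starts limits. A control summit was nearer to the minus-strand start in 54.7% of members (51.1 to 58.1), and the Ngn3-OE share was also 54.7%. Past the starts, 187 control peaks had a summit 1 to 50 bp inside either gene, 78 lay 50 to 100 bp inside, 19 lay 100 to 150 bp inside and 20 lay 150 to 200 bp inside, the last distance within the rule. Just outside the rule, 200 to 250 bp into a gene, were 61 control peaks with a median width of 111 bp and a median percentile of 54.2, while the 20 just inside had 147.5 bp and 65.6. Pairs just past the limit on distance, 1001 to 1100 bp apart, had 14 control peaks at a median percentile of 77.0, and the 20 peaks of pairs 901 to 1000 bp apart had 75.1.

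Motif cores at the summit were counted on both strands within 100 bp of it on each side. ETS factors, NRF1, YY1, ZNF143 and CREB-type factors that bind CRE are known at promoters of housekeeping genes. The ETS core was in 23.4% of control members (20.6 to 26.6) and in 14.7% of other peaks within 200 bp of a start (14.1 to 15.4), a difference of 8.71 points (5.77 to 11.9). For the NF-Y core CCAAT the shares were 38.5% (35.1 to 42.0) and 31.0% (30.1 to 32.0), which differed by 7.43 points (3.94 to 11.0). The E2F core was in 9.20% and 6.08% (difference 1.21 to 5.41 points), the YY1 core in 5.44% and 3.38% (0.620 to 3.92 points) and the ZNF143 core in 5.18% and 3.18% (0.5996 to 3.83 points). Each of these 5 differences had the same sign in Ngn3-OE, with intervals above 0. For E2F the difference to other promoter peaks had an interval that included 0 in CpG-rich windows of control (1.94 points, -0.0673 to 4.399) and in windows of 50 bp on each side (0.632 points, -0.478 to 2.19).

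The SP/KLF core GGGCGG was in 63.5% of control members and 63.6% of the other peaks within 200 bp, with an interval of -3.66 to 3.38 points. NRF1 cores were in 4.404% and 2.83% of control windows, a difference of 0.292 to 3.29 points, and in 3.94% and 2.86% of Ngn3-OE windows, with an interval that included 0 (-0.131 to 2.74). The CRE shares were 4.15% and 3.32%, with an interval of -0.426 to 2.51 points, and the control difference to all other promoter peaks was 1.99 points (0.778 to 3.65). The TATA core TATAAA was in 1.04% of control members (0.526 to 2.03) and 2.76% of the other peaks within 200 bp, a difference of -1.72 points (-2.34 to -0.682). Against all other promoter peaks, the TATA interval included 0 in CpG-rich windows (-0.929 points, -1.47 to 0.139) and in windows of 50 bp on each side (-0.755 points, -1.06 to 0.00587). The E-box core CATCTG, as bound by proneural factors, was in 6.09% of control and 6.31% of Ngn3-OE members, against 21.3% and 22.6% of all peaks. Among other peaks within 200 bp of a start it was in 6.48% and 6.57%, and the intervals of both differences included 0 (-1.95 to 1.58 points in control and -1.87 to 1.74 in Ngn3-OE). To all other promoter peaks the E-box difference was -2.13 points (-3.66 to -0.183) in control and -2.12 points (-3.68 to -0.124) in Ngn3-OE. The SOX core ATTGT was in 9.33% and 9.59% of members and in 25.3% and 23.2% of all peaks. The other peaks within 200 bp held it in 10.3% and 9.71%, again with intervals that included 0 (-2.89 to 1.39 and -2.10 to 2.25 points). Of RefSeq promoters of 300 bp on GRCm38, 8.86% held the ETS core, 37.4% the CCAAT core and 35.7% the SP/KLF core. The TATA core was in 13.6% of them and the E-box core in 17.2%. These windows are longer, are placed by annotation and not by a summit, and were not chosen for a peak. Their shares are therefore not on the same footing as those of the peaks. The motifs overlap in part, since GGGCGG and the reverse of the E2F core can share letters, and ATTGT can share its first letters with the end of CCAAT.

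**Figure D3:**
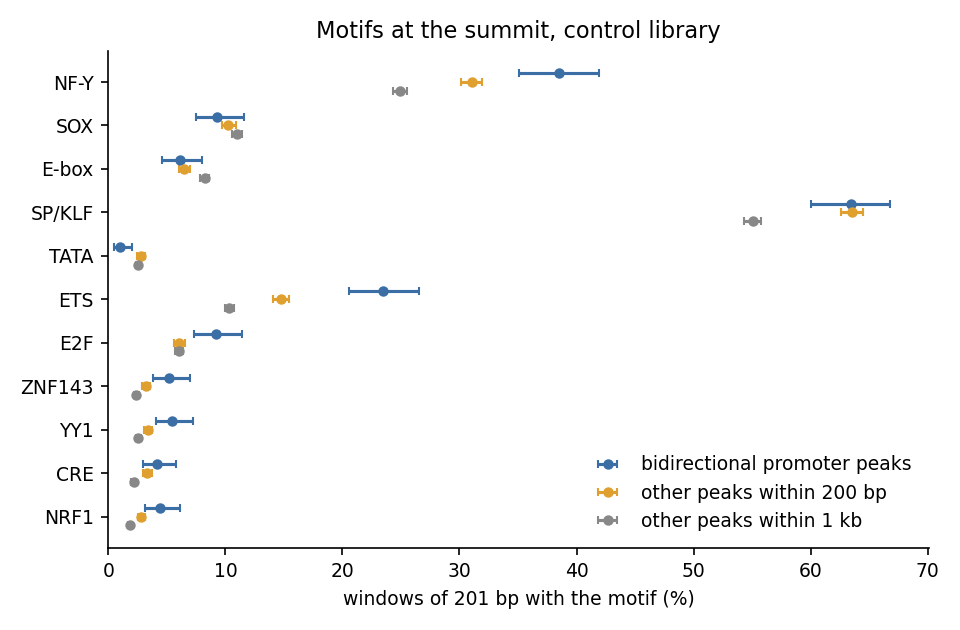
Share of windows of 100 bp on each side of control summits that hold each motif core (x axis, %), for bidirectional promoter peaks, other peaks within 200 bp of a start and other peaks within 1 kb, with 95% Wilson intervals as bars. ETS and NF-Y show the widest separation between bidirectional promoter peaks and the other peaks within 200 bp, with 23.4% against 14.7% and 38.5% against 31.0%.

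Of 33 gene pairs that were listed as possible well-known divergent pairs, 10 met the rule and all 10 had a peak in both libraries. In 12 listed pairs, such as Surf1/Surf2 and Hspd1/Hspe1, the plus-strand start lies to the left of the minus-strand start, so that the gene records overlap, and these pairs fall outside the rule and were not analysed here. The other listed pairs were 5 that lie over 1000 bp apart or are not divergent in the annotation, 4 on the same strand or on different chromosomes and 2 with a symbol that is no protein-coding gene there. Pdcd10/Serpini1, whose genes serve vessel integrity and the serine protease inhibitor neuroserpin, had the most tags with 166 in control and 169 in Ngn3-OE. Rpgrip1l encodes a protein of the ciliary transition zone and Fto an RNA demethylase, and their peak had 146 and 155 tags. The Atm/Npat peak, which joins the DNA damage kinase gene to a regulator of histone transcription, had 113 and 120 tags. Mcm4/Prkdc, a replicative helicase subunit beside the DNA-dependent protein kinase, had 106 and 107 tags at the stronger of its 2 peaks.

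Mrps12/Sars2, for a mitochondrial ribosomal protein and the mitochondrial seryl-tRNA synthetase, had 116 and 97 tags and the highest rank of the known pairs, at percentiles 99.5 and 98.9. Psmb1/Tbp, a proteasome subunit and the TATA-binding protein, had 72 and 69 tags, and Hist1h2ac/Hist1h2bc had 66 and 50. The peak of Wrap53/Trp53 had 39 tags in control and 41 in Ngn3-OE, and that of Lig4/Abhd13, the DNA ligase of end joining and a hydrolase-fold protein, had 36 and 43. Brca1/Nbr1, a homologous recombination gene beside an autophagy receptor gene, had 36 tags in control and 20 in Ngn3-OE, a log2 ratio of -0.85 with a counting interval of -1.71 to -0.02. It ranked at percentile 70.6 in control, against 46.4 in Ngn3-OE. The counting intervals of the other 9 known pairs included 0. Among all control peaks with a counterpart the interval lay below 0 for 2.43% and above 0 for 3.29%.

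**Figure D4:**
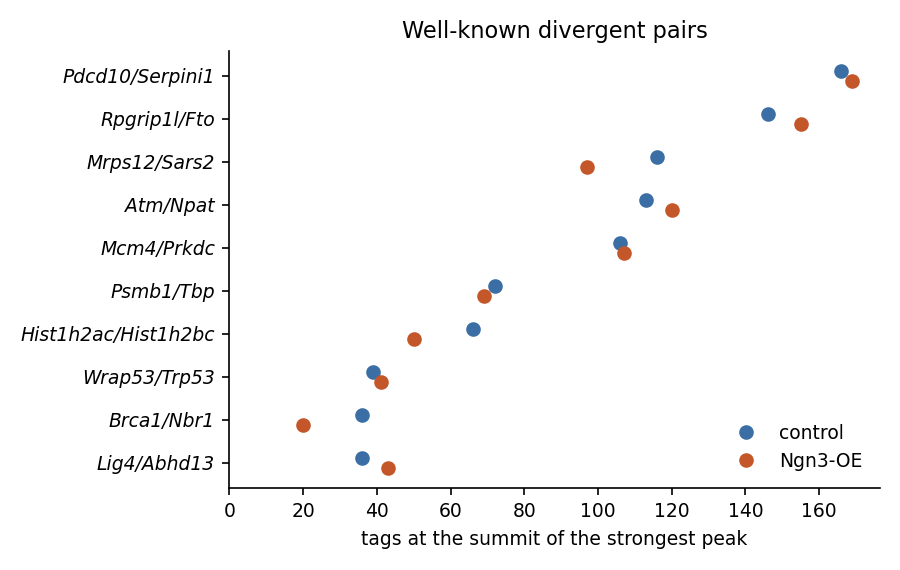
Tags at the summit of the strongest member peak (x axis) of the 10 well-known divergent pairs, with 1 point for control and 1 for Ngn3-OE. Control values run from 36 tags at Lig4/Abhd13 and Brca1/Nbr1 to 166 tags at Pdcd10/Serpini1, and Brca1/Nbr1 has the lowest Ngn3-OE value at 20 tags.

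Gene lists gave the makeup of the pairs. DNA repair had 27 pairs, with 27 of its 77 genes (35.1%) in a pair, and 25 of these pairs had a member peak in both libraries. For all protein-coding gene symbols the share in a pair was 6.77%, and the counts of pairs with a member peak are to be read beside the 666 of all 754 pairs given above. The leading DNA repair pairs were Toe1/Mutyh with 119 and 126 tags, Rad54l/Pomgnt1 with 91 and 92, and Ndufaf2/Ercc8 with 98 and 135. Mutyh is a glycosylase of base excision repair, Rad54l a motor of homologous recombination and Ercc8 a factor of transcription-coupled repair. Rad51c/Tex14 and Pinlyp/Xrcc1 had no member peak, and their nearest summits lay 407 and 720 bp outside the pair in control.

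Genes of mitochondria were also common. Of 78 mitochondrial ribosome genes 18 (23.1%) were in a pair, and all 18 pairs had a member peak in both libraries, led by Mrpl37/Cyb5rl with 86 and 108 tags and Mrpl50/Zfp189 with 126 and 171. The weakest were Mrpl40/Hira at percentiles 36.3 and 24.4 and Klc4/Mrpl2 at 52.8 and 22.0, both named after their values were seen. Of 104 respiratory chain genes 24 (23.1%) were in a pair, and 23 of these had a member peak in both libraries, with medians at percentile 97.2 in control and 97.0 in Ngn3-OE. The medians of the mitochondrial ribosome pairs were 89.4 and 91.7, and those of all pairs with a peak were 94.9 and 94.3. Ndufa2/Ik had 119 and 116 tags and Uqcr10/Zmat5 had 68 and 67. Ndufa5/Asb15 had none, with its nearest control summit 405 bp outside the pair. Of 37 aminoacyl-tRNA synthetase genes 5 (13.5%) were in a pair, and all 5 pairs had a peak in both libraries, led by Mrps12/Sars2, Orc3/Rars2 with 75 and 77 tags and Kars/Terf2ip with 45 and 52.

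Of 79 DNA replication and cell cycle genes 8 (10.1%) were in a pair, and their 9 pairs all had a summit in the zone in both libraries. Prpf38a/Orc1, of which Orc1 belongs to the origin recognition complex, had 71 tags in control and 95 in Ngn3-OE. Rpa3/Umad1, with a subunit of the single-strand binding protein RPA, had 191 and 168, and Rpa1/Smyd4 had 75 and 92. The primary cilium list, whose genes build the sensory cilium that photoreceptors turn into an outer segment, had 11 of 67 genes (16.4%) in a pair, and all 11 pairs had a peak in both libraries. Tctn3/Entpd1 had 124 and 138 tags, Mbd4/Ift122 had 122 and 117, and Rpgrip1l/Fto, given above, also led this list. Of 59 RNA polymerase and Mediator genes 14 (23.7%) were in a pair, led by Dzank1/Polr3f with 110 and 79 tags, Med29/Paf1 with 99 and 96 and Lnx2/Polr1d with 117 and 102, and Bysl/Med20 had no peak assigned to it. Of 57 proteasome and chaperonin genes 8 (14.0%) were in a pair, and 6 of the 8 pairs had a peak in both libraries, among them Psmd10/Atg4a with 79 and 78 tags and Mrpl32/Psma2 with 96 and 95. None of the 68 genes listed for retinal transcription and signalling was in a divergent protein-coding pair.

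Core histones had the highest share of genes in pairs of the 10 lists. Of 67 histone genes 27 (40.3%) were in a pair, mostly an H2A gene back to back with an H2B gene, but 7 of the 14 pairs had a peak in both libraries and 7 had none. Hist1h2ah/Hist1h2bk had 93 tags in control and 81 in Ngn3-OE, Hist1h2ac/Hist1h2bc had 66 and 50, and Hist1h2bl/Hist1h2ai had 48 and 45. Histone genes are near-identical copies, so reads can be lost or split between them, and the values of single histone pairs are uncertain.

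Of the 65 pairs without a peak, 46 had no summit within 1 kb in control, 14 had one within 1 kb, 3 had a peak that reached into the zone and 2 had only a weaker summit of a wider peak there, and the counts in Ngn3-OE were equal. Some belong to genes of other tissues, such as Pecam1/Milr1 with the endothelial marker Pecam1, Best1/Rab3il1 with the pigment epithelium gene Best1, Smyd1/Cd8b1 and Duox2/Duoxa2. Others are in wide use, such as Psma7/Ss18l1, Ftsj3/Psmc5, Alyref/Anapc11 and 1300017J02Rik/Topbp1. These examples were picked after the pairs without a peak were known. For 26 of the 65 pairs neither list held a summit within 10 kb, and the stretch without a summit around them had a median length of 104748 bp in control. At Alyref/Anapc11 that stretch measured 137869 bp in control, against 137634 bp in Ngn3-OE, and held 13 protein-coding starts. Over the genome 24.3% of protein-coding starts lay more than 10 kb from a control summit. The authors removed reads in blacklisted regions, and read coverage was not used here, so closed chromatin and regions lost in processing cannot be told apart.

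Bidirectional promoter peaks were shared between the libraries more often than other promoter peaks. Sharing was called where at least 1 bp of a peak was also covered by the opposite list. Of the members, 98.2% (97.0 to 98.9) of control and 98.8% (97.8 to 99.4) of Ngn3-OE were shared, against 90.3% and 86.6% of other promoter peaks and 95.6% and 95.2% of those within 200 bp of a start. The difference to other promoter peaks was 7.91 points (6.64 to 8.75) in control and 12.2 points (11.1 to 12.9) in Ngn3-OE, and that to the peaks within 200 bp was 2.60 points (1.33 to 3.44) and 3.58 points (2.45 to 4.29). Without a counterpart were 14 control members (1.81%), where 21.7% of all control peaks had none, and 9 Ngn3-OE members (1.18%), where 26.6% of all Ngn3-OE peaks had none. In the 3 highest bands of 10 percentiles in control all members and at least 99.7% of other promoter peaks were shared, so these bands do not tell the sets apart. In the lower bands members were few. From percentile 0 to 10, 5 of 8 control members were shared (62.5%) and 53.97% of other promoter peaks. From percentile 10 to 20, 3 of 7 control members were shared (42.9%, 15.8 to 74.95) and 61.9% of other promoter peaks. From 20 to 30 it was 3 of 5 (60%) and 69.9%, and from 30 to 40 it was 13 of 16 (81.3%) and 80.2%. From 40 to 50 it was 8 of 9 (88.9%) and 88.5%, from 50 to 60 all 28 members and 93.8%, and from 60 to 70 it was 30 of 31 (96.8%) and 98.6%. The intervals of both sets overlapped in each control band below percentile 70.

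The members found in 1 library had few tags. They had 6 to 22 tags in control and 4 to 15 in Ngn3-OE, with a highest percentile of 60.2 and 51.4. For 13 of the 14 control members and 8 of the 9 Ngn3-OE members, the same pair had another peak in the other list. In their own list, the peaks of B3galt6/Sdf4 and Rpa3/Gm45062 in control and of Sirt1/Dnajc12 in Ngn3-OE were the single member of their pair. Rpa3/Gm45062 shares its Rpa3 start with Rpa3/Umad1, to which a peak of 191 tags in control and 168 in Ngn3-OE was assigned. Among the control members with the highest −log10 q were those at Hspa1a/Hspa1l, a pair of heat shock genes, with 10.1, B3galt6/Sdf4 with 6.39, Lrrc74b/P2rx6 with 6.17 and Rpa3/Gm45062 with 4.75. In Ngn3-OE they were at Lrrc75a/Mmgt2 with 7.77, Zfp661/Mrps5 with 7.04, Ptchd1/Gm15155 with 6.25, Pcsk4/Reep6 with 4.70 and Tbc1d10b/Mylpf with 4.16. The Hspa1a/Hspa1l peak had 13 tags at its summit, and that of Lrrc75a/Mmgt2 also had 13. Sirt1/Dnajc12 was the one Ngn3-OE case whose pair had no member peak in control, with 12 tags.

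Ranks were then set side by side for shared members. A percentile is a place within one list, and the lists differ in length and in their unshared peaks, so a small difference between percentiles does not show a change in the peak. Over 758 shared control members the median difference was -0.14 percentiles (-0.31 to -0.02), Ngn3-OE minus control, against 0.28 in other promoter peaks (0.22 to 0.34) and 0.94 in all shared peaks (0.87 to 1.02). The rank stayed within 5 percentiles for 79.2% of members (76.1 to 81.9), 67.3% of other peaks within 200 bp of a start (66.4 to 68.2) and 33.3% of all shared peaks. A rise of 20 percentiles or more was found for 15 members (1.98%, 1.20 to 3.24), where 15.9% of all shared peaks rose that far. A fall of 20 or more was found for 17 members (2.24%, 1.40 to 3.56), where 10.9% of all shared peaks fell that far.

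Peaks near the top of the list have little room to move, so members were also read at like rank. Of the 478 members in the highest 10 percentiles of control, 96.4% (94.4 to 97.8) stayed within 5 percentiles, and so did 93.7% (92.9 to 94.3) of the other peaks within 200 bp. Between percentiles 50 and 90 the shares were 53.6% (47.4 to 59.7) and 48.9% (47.3 to 50.5). Below percentile 50 they were 18.8% of 32 members (8.89 to 35.3) and 17.3% (15.1 to 19.7). Of the 15 members that rose by 20 percentiles or more, 13 came from these 32, a share of 40.6% (25.5 to 57.7), where 35.5% of other peaks within 200 bp in the same range rose that far (32.7 to 38.4). Falls of 20 or more were found for 12.5% of these 32 members (4.97 to 28.1) and 6.92% of the other peaks within 200 bp (5.54 to 8.60). Between percentiles 50 and 90 such falls were found for 5.24% (3.09 to 8.76) and 5.49% (4.81 to 6.26). For the share within 5 percentiles, the 2 intervals just missed each other in the highest band and overlapped in both lower ranges.

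**Figure D5:**
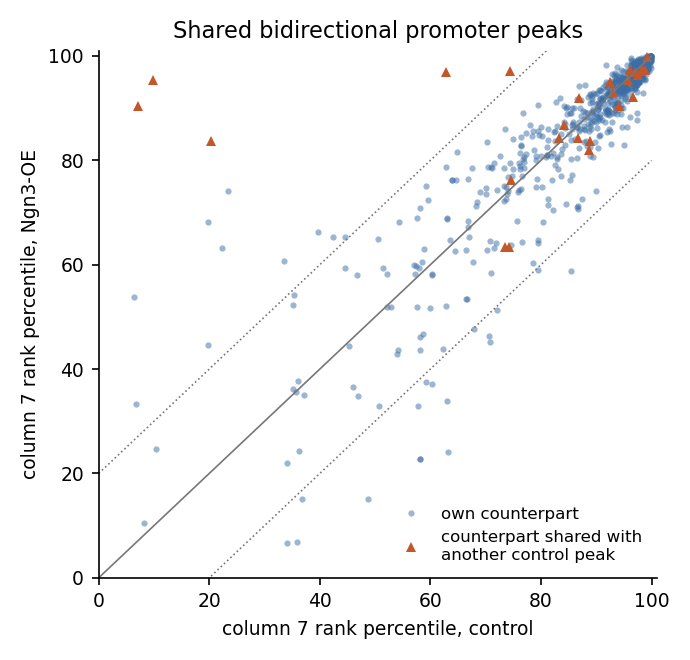
Column 7 rank percentile in control (x axis) and Ngn3-OE (y axis) of the 758 shared bidirectional promoter peaks, with a solid line at equal rank and dotted lines at a difference of 20 percentiles. Most points lie near the line at the upper right, and of the 15 peaks above the upper dotted line 5 share their counterpart with another control peak (triangles).

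The 3 largest rises came from control peaks whose counterpart in Ngn3-OE was one longer peak. At Wrn/Purg, with the gene of a DNA helicase and that of a single-strand binding protein, a control peak of 12 tags at percentile 9.85 had its counterpart in an Ngn3-OE peak of 92 tags at percentile 95.4. That Ngn3-OE peak also covered the main control peak of the pair, which had 84 tags at percentile 95.8. Eif3i/Tmem234 rose from 4 to 27 tags and Nlgn2/Tmem256 from 16 to 54 in the same way. The counterpart was the member's own at Asphd1/Sez6l2, with 8 tags in control and 23 in Ngn3-OE (log2 ratio 1.52, 0.31 to 2.89), and at Nrg4/Tmem266, with 9 and 23 (1.35, 0.19 to 2.65). Sez6l2 is a neuronal membrane protein gene and Nrg4 a neuregulin gene.

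The counterpart was the peak that shared most bases. By this rule the 5 largest falls were at Tst/Mpst with 18 tags in control and 8 in Ngn3-OE, Btf3l4/Txndc12 with 28 and 15, another peak of Wrn/Purg with 24 and 16, Smc1b/Ribc2 with 7 and 4, and Atg13/Harbi1 with 18 and 11. Tst and Mpst encode sulfurtransferases, Smc1b a meiotic cohesin subunit and Atg13 a factor of autophagy initiation. The counting interval of the log2 ratio included 0 for each of these 5 peaks, as from -2.58 to 0.10 at Tst/Mpst. The control peak of Klc4/Mrpl2, whose strongest member peaks are given above, shared most bases with a different Ngn3-OE peak and is not among these 5.

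Taking the strongest assigned peak of each pair, in 654 of the 666 pairs the 2 strongest peaks overlapped. Over these 654 the median log2 ratio of tags was 0.01, with no scaling for depth, and it ran from -1.35 to 1.32. The counting interval lay above 0 for 8 of them (1.22%) and below 0 for 10 (1.53%), beside the 3.29% and 2.43% of all control peaks with a counterpart.

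Facts of the whole lists bear on all of these values. Of 12 progenitor marker genes, 10 in control and 11 in Ngn3-OE had a summit within 1 kb of the start, with Notch1 in neither, and their strongest peaks had a median percentile of 73.6 and 77.2. None of 3 microglial or 3 pigment epithelial markers had one, while 1 of 3 endothelial, 1 of 2 astrocyte and both mature rod markers did in each library. Both lists had a median of 9 tags at the summit over all peaks. The total number of reads is not in the lists, so the depth of the libraries is unknown.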

How the data were processed

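ATAC-seq libraries of GFP-sorted late RPCs at DAE 2 were analysed as 2 peak lists, 1 for control and 1 for Ngn3-OE. According to the methods of the study and the submitters' processing notes, the authors trimmed reads with Trimmomatic, aligned them to mm10 with Bowtie2, removed duplicates (Picard), mitochondrial reads (SAMtools) and blacklisted regions (bedtools), kept only short fragments, shifted read ends for the Tn5 cut (deepTools) and called narrow peaks per library with MACS2. Keeping short fragments favours nucleosome-free DNA, and its effect on peak width was not tested. The authors deposited for each summit a display score, the fold enrichment over the local background (a ratio), and the −log10 p-value and −log10 q-value. Read counts were not used here, so depth is unknown, and replicates were not pooled.

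Lines with equal coordinates were joined to 1 peak with the summit of highest −log10 q, on chromosomes 1 to 19, X and Y; 159 control and 150 Ngn3-OE lines lay elsewhere. Tags at a summit were worked out from the deposited fold enrichment and −log10 p-value, which together fix the pileup and the background of a Poisson test. Gene starts came from GENCODE M21 and promoter windows of 300 bp from RefSeq (GRCm38). A rank percentile was taken within each list. Shares have Wilson intervals, differences of shares Newcombe intervals, and medians order-statistic intervals, all at 95%. These treat the regions, pairs or genes of 1 list as independent, although a pair can hold several members. Intervals of tag ratios cover counting error only, and PCR copies are not independent molecules. With 1 library per group no test was run. The steps were tested on simulated data.

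The members, gene lists and rules were chosen with earlier results of these data known. Named were the listed well-known pairs that met the rule, the 8 pairs of highest mean rank, the 5 members of each library without a counterpart that had the highest −log10 q, the 5 largest rises and falls, the 3 widest members and the 3 with most summits, and the 3 leading pairs of each gene list with those that had no peak. A few items that fall under this rule are not reported here. Alternatives changed the zone, the starts, the comparison peaks, the filter on q, the rank, the overlap and the motif window. Python 3.11.15, numpy 2.4.6, pandas 2.3.3, scipy 1.17.1, pysam 0.24.0 and matplotlib 3.10.9 were used.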

Additional observations from a re-analysis of the deposited data

How the results depend on the processing

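Each group had 1 library, so none was left out in turn, and differences between the conditions have no replicate spread to be read against. No paired analysis was possible because each group had 1 library and no test was made. Counts were held to within 1.5 times the reported count and other values to its counting interval. Of 192 alternative values, 89 moved past that limit, 2 changed sign and the rest stayed within it. The cause of these moves was not tested. Members with few tags limit the reading of single peaks.

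Values are given for control and then Ngn3-OE, and differences are members minus other promoter peaks. With the zone ending at the starts there were 468 and 466 members, 59.3% and 59.2% of pairs had a peak, the difference in the share with more than 1 summit was 6.75 and 7.40 points, the rank difference in Ngn3-OE was 23.2 percentiles and the control members without a counterpart were 7. With the zone 500 bp past each start there were 1070 and 1107 members, 93.1% of pairs in each library had a peak, and the differences were 45 and 42 bp in width, 16.8 and 15.8 percentiles in rank, 4.37 and 3.85 points in the share with more than 1 summit and 4.92 and 5.47 points in sharing. With transcript starts there were 1327 and 1346 members, the width difference was 80 and 82 bp and the sharing difference in Ngn3-OE was 10.4 points. This setting had 5035 pairs of transcript starts from 1096 pairs of genes, so that 1 promoter can count several times. Of these 5035 pairs 93.8% and 93.9% had a peak, in a unit unlike that of the 754 pairs of gene starts.

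At −log10 q of at least 5, the differences were 72 and 79.5 bp, 11.7 and 12.3 percentiles, 6.75 and 7.08 points with more than 1 summit and 2.42 and 4.23 points in sharing, 4 and 3 members had no counterpart, and 0.936% of shared members moved up by 20 percentiles. Against other peaks within 200 bp the differences were 41.5 and 46 bp, 4.76 and 4.68 percentiles, 4.63 and 4.08 points with more than 1 summit and 2.60 and 3.58 points in sharing. In CpG-rich windows they were 77.5 and 86 bp, 15.1 and 15.7 percentiles, 7.52 points with more than 1 summit in Ngn3-OE and 6.11 and 9.59 points in sharing. With 1 peak per pair or start they were 62 and 62.5 bp, 6.66 and 6.39 percentiles, 6.20 and 4.95 points with more than 1 summit and 3.77 and 5.15 points in sharing. With these 3 restrictions together, an alternative chosen after seeing the data, they were 41 bp in each library, 4.05 and 3.63 percentiles, 3.24 and 1.58 points with more than 1 summit and 1.90 and 2.46 points in sharing.

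Ranked by −log10 q, the rank difference was 19.8 and 20.3 percentiles. Where sharing needed an overlap of 50% of both peaks, its difference was 14.8 and 18.2 points and 42 and 35 members had no counterpart. Where it needed summits within 100 bp, these were 10.6 and 13.8 points and 42 and 37 members. With a limit of 10 percentiles, 4.75% of shared members moved up and 6.20% down.

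For motifs in control, windows of 50 bp on each side gave differences of 8.11 points for ETS, 1.12 for YY1 and 0.632 for E2F, and windows of 250 bp gave 6.34 for YY1, -3.78 for TATA, -4.44 for the E-box and -5.96 for SOX. Against other peaks within 200 bp the differences were 8.71 points for ETS and 7.43 for NF-Y, and that for SP/KLF changed sign to -0.078. In CpG-rich windows SP/KLF differed by 0.765 points, and the E-box changed sign to 0.449 points.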

Other observations

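Members with a CCAAT core within 100 bp of the summit ranked higher than those without it, with median percentiles of 96.5 and 90.6 in control and 96.2 and 90.4 in Ngn3-OE. For the ZNF143 core the medians were 97.8 and 93.1 in control and 96.8 and 92.8 in Ngn3-OE. For NRF1 they were 91.5 and 93.6 in control, lower with the core. These are descriptions over peaks of 1 library each, with no test.

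Over the first 350 bp inside paired genes, counted by the nearest start and not by the assigned pair, control summits were most frequent in the first 50 bp, with 187, and least frequent from 100 to 200 bp, with 19 and 21 per 50 bp. From 250 to 300 bp there were 86, at a median percentile of 54.4. Inside other genes the counts were 1540, 439, 455 and 908. In Ngn3-OE they were 196, 18, 15 and 90 in paired genes and 1555, 427, 447 and 925 in other genes.

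Of the pairs more than 10 kb from any summit, the stretch without a summit was longest around Aspa/Spata22 in control, with 454803 bp and 13 protein-coding starts, and around 4931428L18Rik/Pih1d3 in Ngn3-OE, with 962308 bp and 2 protein-coding starts. Around the histone pair Bola1/Hist2h2ab it measured 208081 and 208015 bp and held 12 protein-coding starts. The cause was not tested.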
